A study of Mus musculus with 10 samples.

Results

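The accessible chromatin around 8 genes of the gp130 and STAT3 pathway was followed by ATAC-seq, which cuts open DNA with a transposase, in neural stem cell (NSC) cultures from the adult mouse subependymal zone (SEZ). The genes were Lifr, Il6st, Cntfr, Osmr, Jak1, Jak2, Stat3 and Socs3. Peaks were taken from the list of each library when their summit lay in the gene body or within 50 kb of it (GENCODE annotation, GRCm38). Overlapping peaks of the 10 libraries were merged into regions. Of 137454 regions in all, 125 belonged to these 8 windows, 20 of them with a peak in 1 library alone. A region was tested when 5 or more libraries had a peak in it, which held for 70627 regions in all and for 90 of the 125.

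The cultures came from 10-week-old wild type (WT) mice and from mice without p27 (p27KO). The gene of p27 is Cdkn1b, and the protein holds cells in G1 by inhibiting cyclin-dependent kinases. Proliferating (PRO) neurospheres were kept in medium with EGF at 20 ng/ml and FGF at 10 ng/ml and were harvested, per the labels, after 3 days in vitro. Differentiating (DIFF) cells had been seeded on Matrigel for 2 days with FGF and were harvested 24 h after the mitogens were replaced by 2% serum. There were 3 libraries of WT PRO, 3 of WT DIFF, 2 of p27KO PRO and 2 of p27KO DIFF, each from 50000 cells. PRO and DIFF thus differ in substrate and serum as well as in mitogens, and these cannot be told apart. The labels give the p27KO genotype without naming a Cre line or transgene.

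gp130, the product of Il6st, is the shared signal transducer of the interleukin-6 family of cytokines. It pairs with LIFR or OSMR, and CNTFR binds ciliary neurotrophic factor without signalling by itself. The kinases JAK1 and JAK2 are bound to these receptors and phosphorylate STAT3, which dimerises, enters the nucleus and binds the palindrome TTCNNNGAA, while SOCS3, a target of STAT3, blocks gp130 and the JAKs in a feedback loop. In neural progenitors the pathway is known for driving astrocyte genes such as Gfap and for its part in self-renewal.

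The labels and the libraries were checked first. A peak at the Cdkn1b promoter was present in 6 of 6 WT and 0 of 4 p27KO libraries. Peaks at the Y-linked genes Ddx3y, Eif2s3y and Uty had the same split, so genotype and sex of the cultures cannot be told apart in any WT with p27KO comparison. All 6 markers of neural stem and progenitor cells had a promoter peak in every library. Among markers of other types, 3 to 4 of 4 astrocyte, 3 of 4 neuroblast, 2 of 4 oligodendrocyte, 3 to 4 of 5 microglia, 1 of 4 endothelial and 1 to 3 of 5 fibroblast and pericyte genes had a peak in a library. Only regions with a peak in 2 or more libraries were read for these markers, and Dcx, Sox10, Mog, Cx3cr1, Cldn5, Cdh5, Pecam1 and Col1a2 had no such region. List length ran from 57534 peaks (WT DIFF replicate 2) to 91801 (p27KO PRO replicate 1), and WT DIFF replicate 3, with 88738 peaks, stood apart from the other WT DIFF lists at 61783 and 57534. Read depth is unknown from peak lists, and in a population of cells a lower signal in each cell cannot be told apart from fewer cells with the open state.

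The DNA of the regions that changed is shown for 7 of the called regions, as 201 bases of the plus strand of GRCm38 centred on the summit. Capitals mark TGANTCA, where N is any base, a loose pattern for the site of AP-1 (Fos and Jun). A match is not a site. The first 4 were picked from the falling regions that hold the motif, so their motif and direction are no result. The last 3 were called in both genotypes and hold neither TGANTCA nor TTCNNNGAA, and of these the Stat3 region also fell. Not printed are 2 more falling regions with TGANTCA (in the Cntfr and Stat3 windows) and a called Il6st region with a higher score at DIFF that holds it at 2 places.

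Lifr intron, chr15:7092369-7092569: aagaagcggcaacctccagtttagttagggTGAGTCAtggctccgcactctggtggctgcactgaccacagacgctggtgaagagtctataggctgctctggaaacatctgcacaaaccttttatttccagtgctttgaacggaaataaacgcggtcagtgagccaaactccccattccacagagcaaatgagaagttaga

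Osmr intron, chr15:6850011-6850211: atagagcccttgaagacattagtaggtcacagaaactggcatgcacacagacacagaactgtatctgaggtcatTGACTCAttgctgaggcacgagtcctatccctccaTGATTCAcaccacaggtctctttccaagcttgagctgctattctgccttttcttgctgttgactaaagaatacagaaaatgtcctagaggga

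Jak1 intron, chr4:101234427-101234627: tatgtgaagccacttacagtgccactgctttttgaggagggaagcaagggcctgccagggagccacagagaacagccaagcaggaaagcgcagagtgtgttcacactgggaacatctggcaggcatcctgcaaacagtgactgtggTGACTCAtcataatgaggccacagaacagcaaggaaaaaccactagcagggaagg

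Jak2 intron, chr19:29267189-29267389: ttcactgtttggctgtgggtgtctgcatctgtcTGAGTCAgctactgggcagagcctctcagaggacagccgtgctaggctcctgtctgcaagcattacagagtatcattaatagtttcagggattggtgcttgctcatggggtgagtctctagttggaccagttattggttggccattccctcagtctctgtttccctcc

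Stat3 upstream region, chr11:100952359-100952559: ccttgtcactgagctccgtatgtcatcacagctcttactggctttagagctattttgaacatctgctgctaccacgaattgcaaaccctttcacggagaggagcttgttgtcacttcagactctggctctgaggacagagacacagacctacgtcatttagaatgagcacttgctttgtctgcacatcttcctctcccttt

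Cntfr intron, chr4:41672093-41672293: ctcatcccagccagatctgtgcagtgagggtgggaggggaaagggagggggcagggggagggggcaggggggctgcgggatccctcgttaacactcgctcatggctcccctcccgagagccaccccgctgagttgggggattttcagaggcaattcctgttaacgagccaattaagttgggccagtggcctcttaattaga

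Osmr upstream region, chr15:6882325-6882525: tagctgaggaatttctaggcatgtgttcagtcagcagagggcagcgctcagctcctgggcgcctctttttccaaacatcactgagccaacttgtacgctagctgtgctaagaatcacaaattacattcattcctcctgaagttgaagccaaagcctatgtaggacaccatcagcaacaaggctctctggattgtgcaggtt

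The 8 promoter regions, for each gene the single region nearest to one of its start sites, held no called change. The calls lay in introns and flanks, but 2 of them were within 3 kb of a start site. These were the Lifr region 1.9 kb from the annotated start and a Stat5a start-site region in the Stat3 window. Of 90 tested regions, 20 changed between WT PRO and WT DIFF, 9 of them higher and 11 lower at DIFF. That is 22.2% of the regions, against 19.2% of all regions tested (9.15% higher and 10.1% lower). In p27KO, 8 of 90 changed (8.89%, against 12.3% of all regions), 5 higher and 3 lower (5.83% and 6.48% of all regions). All 8 were also called in WT, in the same direction (8.89% of the 90, against 9.83% of all regions). None of the 8 promoter regions was called in either genotype, while over all promoter regions tested 4.84% were called in WT and 2.25% in p27KO. A call is an adjusted p under 0.05 by limma with Benjamini-Hochberg adjustment over all 70627 regions. Differences are given on the scale of normal scores, for which the fold enrichment of a region is ranked within its library and the rank is turned into a standard normal value. Regions without a peak share the lowest rank, so their score depends on the length of the list. It averaged -1.65 in WT PRO and -1.32 in WT DIFF, and -1.80 in p27KO PRO and -1.35 in p27KO DIFF. The absence of a peak in both conditions thus counts as a difference of 0.33 in WT and 0.45 in p27KO. On these means, rises of weak regions are overstated and falls to no peak understated. In WT this comes from DIFF replicates 1 and 2 (-1.15 and -1.07). DIFF replicate 3, at -1.76, lay below the WT PRO libraries (-1.68, -1.68 and -1.59). The median difference was 0.01 for the 90 regions and 0.03 for all regions in WT, and 0.09 and 0.04 in p27KO. PRO and DIFF values did not overlap in WT for 29 of the 90 regions (31.9% of all regions) and in p27KO, with 2 libraries against 2, for 45 (56.5% of all regions). The labels describe the replicates as biological, and the p-values measure the spread between these libraries.

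The same fit was therefore repeated, after seeing the data, on the percentiles themselves, with no peak set to 0 in every library. Percentiles depend on list length as well, since a given rank from the top has a lower percentile in a shorter list. Neither scale is thus free of list length. On this scale 11 of 90 regions were called in WT, 3 higher and 8 lower (15.2% of all regions, 4.61% higher and 10.6% lower). In p27KO 8 were called, 2 higher and 6 lower (10.8% of all regions, 2.2% higher and 8.57% lower). Of the WT calls on normal scores, 7 of the 11 falls and 3 of the 9 rises were kept. Every list was also shortened to its 57000 strongest peaks, which left the score of an absent peak 0.14 higher in WT DIFF than in WT PRO. There 15 of 79 regions were called in WT, 5 higher and 10 lower, and 8 in p27KO, 3 higher and 5 lower. Both were smaller shares than over all regions, of which 22.2% were called in WT and 15.2% in p27KO. The balance of rises and falls thus differed between normal scores and percentiles, where no peak is set to 0 and values depend on list length. The counts on shortened lists do not separate this from regions leaving the fit. Of the WT calls on normal scores, 15 could be fitted again on shortened lists, and 1 of these lost the call. Over all regions, rises made up 47.2% of WT calls on shortened lists, 47.6% in the main fit and 30.3% on percentiles. In p27KO these shares were 45.0%, 47.3% and 20.5%.

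The 20 WT calls were not equally stable. Leaving out each of the 10 libraries in turn left 7 of them called every time: 4 higher (Cntfr 24.9 kb and 84.8 kb downstream, Osmr 7.5 kb upstream, Jak2 99.3 kb downstream) and 3 lower (Osmr 24.9 kb downstream, Jak2 15.5 kb downstream, Stat3 12.9 kb upstream). Distances are from the annotated start of the gene, along its direction of transcription. The other 13 lost the call without at least 1 library. The number called in WT fell to 11, 9 and 11 without WT PRO replicates 1, 2 and 3, and to 9, 12 and 11 without WT DIFF replicates 1, 2 and 3. Percentiles ended 10 of the 20 WT calls, fitting regions with a peak in 2 or more libraries 9, fitting WT alone 8, ranking by -log10 p 5, the replicate block 5, a stricter q-value 4 of 19 and a cover of at least 50% of the region 3 of the 11 regions it held. Among the 7, the 50% cover ended the call of the Stat3 region and percentiles that of the Jak2 region 99.3 kb downstream. The other 5, at Cntfr (both), Osmr (both) and Jak2 15.5 kb downstream, kept the WT call in every fit that held them, and in p27KO this was so for the 2 Cntfr regions. The number called in p27KO fell to 5 without p27KO PRO replicate 2 or without p27KO DIFF replicate 2. The share of all regions called was not taken with a library left out, so these counts are not read as a trait of the windows.

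**Figure D1:**
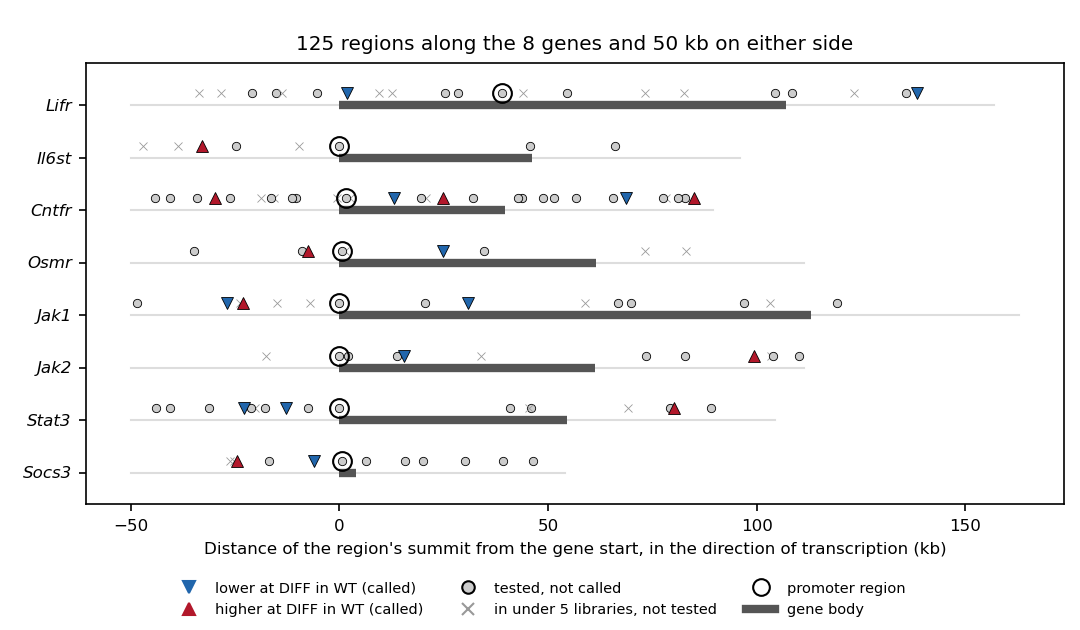
Position of the 125 regions along the 8 genes. The horizontal axis is the distance of a region's summit from the annotated gene start in kb, each row is 1 gene, the thick bar is the gene body, and triangles mark the 20 regions called in WT. All 8 promoter regions (ringed) are uncalled, and called regions lie in introns and in the flanks on both sides.

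By presence, the windows held 89 to 95 peaks per list in WT PRO, 75, 76 and 97 in WT DIFF, 95 and 100 in p27KO PRO, and 88 in each p27KO DIFF list. The DIFF minus PRO difference of the means was -10 peaks in WT, where the 97 peaks of WT DIFF replicate 3 lie above all WT PRO lists, and -17.2 without that library. It was -9.5 peaks in p27KO. With each list cut to its 57000 strongest peaks the differences were -2.67 in WT and 1 in p27KO. As a share of the list the windows kept 0.109% to 0.130% of peaks in every library, and the DIFF lists were shorter in all but WT DIFF replicate 3. Of 105 regions seen in 2 or more libraries, 53 had one in all 10 (50.5%, against 38.2% of all regions). In WT, 5 regions closed, with a peak in every PRO and no DIFF library (4.76%, against 4.32% of all regions), and 3 opened (2.86%, against 1.86%). Without WT DIFF replicate 3, 9 closed, under a rule that asks fewer libraries to agree. In p27KO, 9 closed (8.57%, against 10.9%) and 4 opened (3.81%, against 3.32%), and 7 opened without p27KO PRO replicate 1. The shares of all regions hold for the full rule. They were not taken with a library left out, so those counts are not read as extra closing or opening. Both genotypes shared 4 closed regions (Lifr 2, Jak2 1 and Stat3 1) and 2 opened regions (Cntfr 1 and Jak2 1). The shared count was not taken over all regions, so it is a description only.

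Promoter levels are given here gene by gene, from high to low. The values that follow are percentiles of fold enrichment within a library's own list, a level at the peak and not a sum over its length (883 to 1636 bp). The promoters of Il6st (median of 10 libraries 95.6, range 90.5 to 98.0), Stat3 (95.4, range 93.3 to 98.3) and Jak1 (95.2, range 92.3 to 96.8) were the highest, and these 3 did not differ beyond their spread. Lifr followed (89.1, range 81.5 to 91.3), then Jak2 (82.4, range 77.2 to 85.7) and Socs3 (78.8, range 67.4 to 84.9), each overlapping its neighbour. The receptors Osmr (46.4, range 27.1 to 58.6) and Cntfr lay lower, below every value of the other 6 genes, and overlapped each other. At Cntfr the 9 libraries with a peak ran from 1.13 to 45.9, and WT DIFF replicate 2 had none.

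**Figure D2:**
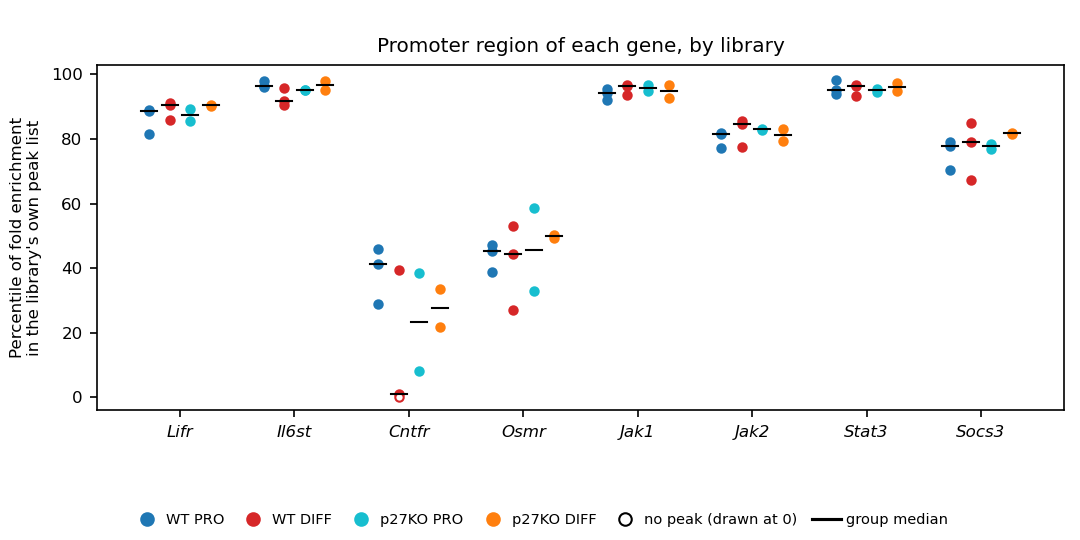
Percentile of fold enrichment of each gene's promoter region in the library's own peak list, by group, with 1 point per library, the group median as a bar and an open circle at 0 for a library with no peak. Osmr and Cntfr lie at or below 58.6 and the other 6 genes at or above 67.4 in all 10 libraries, and the groups of a gene overlap in WT except at Il6st.

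Lifr, the receptor that pairs with gp130 for leukemia inhibitory factor, had the most closing regions. The Lifr gene (chr15:7090614-7197489, plus strand) starts 38.9 kb before its promoter region (chr15:7128685-7130320), which had percentiles of 81.5, 88.8 and 88.9 in WT PRO and 85.8, 91.3 and 90.5 in WT DIFF. The difference in WT was 0.22 ± 0.18 (SE; adjusted p = 0.444, limma). A region in an intron, 1.9 kb from the annotated start (chr15:7092247-7092907, the first sequence above), stood at 83.3, 81.8 and 74.1 in WT PRO and at 42.2, 32.2 and 61.9 in WT DIFF. In p27KO PRO it stood at 56.4 and 81.0, and neither p27KO DIFF list had a peak. All DIFF values were thus below all PRO values in each genotype. It fell by 0.78 ± 0.23 in WT (SE; adjusted p = 0.0363, limma) and by 1.65 ± 0.28 in p27KO (adjusted p = 0.00350). The WT call was lost without any 1 of the 6 WT libraries (adjusted p from 0.0506 to 0.103), and the p27KO call was kept with each library left out but ended when a peak had to cover at least 50% of the region (adjusted p = 0.106).

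Further into the gene, 25.3 kb downstream (chr15:7115671-7116130), a weaker region had percentiles of 18.7 to 31.3 in all 5 PRO lists and no peak in any DIFF list. Its differences of -0.53 ± 0.21 in WT and -0.42 ± 0.26 in p27KO missed the threshold (adjusted p = 0.108 and 0.357, limma), which ranking by -log10 p moved to 0.00589 and 0.0377 and percentiles to 0.0126 and 0.0269. A region in an intron of the neighbouring gene Egflam, 138.3 kb downstream of the Lifr start (chr15:7228654-7229128), had the same presence in all 10 libraries, at 46.2, 27.5 and 20.7 in WT PRO and 30.1 and 19.2 in p27KO PRO. It fell by 0.74 ± 0.23 in WT (adjusted p = 0.0446, limma), and the call was lost without WT PRO replicate 1, 2 or 3, WT DIFF replicate 1 or 3, or any 1 of the p27KO libraries (adjusted p from 0.0535 to 0.152). A further 2 Lifr regions were in too few libraries for the test. The one 44.0 kb downstream (chr15:7134546-7134855) closed in WT, and the one 12.6 kb downstream (chr15:7103158-7103345) opened in p27KO, where its peaks stood at 39.4 and 15.6, while WT DIFF replicate 3 also had a peak there, at 47.3.

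Il6st (chr13:112464070-112510086, plus strand), which encodes gp130, had the fewest regions, 8 in all and 5 tested. Its promoter (chr13:112463619-112465111) stood at 98.0, 96.2 and 96.5 in WT PRO and 91.9, 90.5 and 95.9 in WT DIFF, all lower than PRO. In p27KO PRO it stood at 95.2 and 95.3, and in p27KO DIFF at 98.0 and 95.3. The differences of -0.33 ± 0.18 in WT and 0.29 ± 0.22 in p27KO had adjusted p = 0.246 and 0.455 (limma). The called region of this window was 33.0 kb upstream (chr13:112430779-112431876, in an intron of Gm48879), and it had the largest difference between the genotypes among the 90. In WT PRO, replicate 3 alone had a peak, at 15.4, and WT DIFF stood at 10.8, 10.6 and 34.3, so the groups overlapped. In p27KO it stood at 46.9 and 54.3 in PRO, with no peak in DIFF replicate 1 and 21.1 in DIFF replicate 2. Its score was higher at DIFF by 0.86 ± 0.25 in WT (adjusted p = 0.0329, limma), with the call lost without WT PRO replicate 1 or 2 or any WT DIFF replicate (adjusted p from 0.0522 to 0.111). On percentiles, which also depend on list length, the difference was 13.4 ± 8.64 points (adjusted p = 0.364, limma), not called. The cause of this loss was not tested. The p27KO difference was -0.71 ± 0.31 (adjusted p = 0.172).

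Cntfr (chr4:41657498-41697089, minus strand), the CNTF-binding subunit, held the most regions, 31 with 24 tested, in a window shared with Dnaic1, Il11ra1, Dctn3, Rpp25l and Arid3c. Its promoter (chr4:41695178-41696060) stood at 45.9, 41.3 and 28.9 in WT PRO and at 1.13, no peak and 39.5 in WT DIFF, so the groups overlapped. The difference was -0.36 ± 0.21 in WT and 0.48 ± 0.26 in p27KO (adjusted p = 0.276 and 0.278, limma). An intronic region 24.9 kb downstream of the gene start (chr4:41672091-41672513, printed above) was the clearest change inside the gene. No PRO library of either genotype had a peak there, and DIFF stood at 19.8, 21.8 and 27.5 in WT and 32.8 and 26.3 in p27KO. It rose by 1.13 ± 0.20 in WT and by 1.37 ± 0.24 in p27KO (adjusted p = 0.00249 and 0.00441, limma), with no call lost when a library was left out.

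A further region of the Cntfr window that rose lay 84.8 kb downstream, in an intron of Dnaic1 (chr4:41612060-41612470). It had no peak in WT PRO, 19.7, 33.9 and 53.3 in WT DIFF, 3.92 and 7.23 in p27KO PRO and 41.6 and 41.5 in p27KO DIFF. It rose by 1.43 ± 0.17 in WT and by 1.20 ± 0.21 in p27KO (adjusted p = 0.000327 and 0.00458, limma), and both calls were kept with each library left out. Inside Cntfr, 13.2 kb downstream (chr4:41683160-41684176), a region with TGANTCA fell from 69.2, 70.1 and 50.1 to 13.3, 18.6 and 40.2 in WT, a difference of -0.71 ± 0.22 (adjusted p = 0.0408, limma). The call was lost without WT PRO replicate 1 or 2, any WT DIFF replicate, or either p27KO PRO replicate (adjusted p from 0.0520 to 0.130). In p27KO it stood at 69.0 and 57.9 in PRO and 54.2 and 33.7 in DIFF (-0.25 ± 0.27, adjusted p = 0.607).

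The remaining called regions of that window were less stable. The region 68.5 kb downstream, again in a Dnaic1 intron (chr4:41628282-41628768), fell by 0.86 ± 0.25 in WT (adjusted p = 0.0354, limma), and the call was lost without WT PRO replicate 2 or 3 or WT DIFF replicate 1 or 2 (adjusted p from 0.106 to 0.122) and on percentiles (0.0887). The region 29.9 kb upstream, in introns of Il11ra1 and Arid3c (chr4:41726823-41727167), had a peak in WT PRO replicate 1 alone, at 2.93, and stood at 0.523, no peak and 22.6 in WT DIFF. Those groups overlapped. Its score difference of 0.61 ± 0.19 (adjusted p = 0.0439, limma) lost the call with lists of equal length (0.28, adjusted p = 0.263), on percentiles (adjusted p = 0.529) and without any 1 of the libraries except WT PRO replicate 1 (adjusted p from 0.0537 to 0.147). A region 18.7 kb upstream (chr4:41715736-41715858), in introns of Il11ra1 and Dctn3, closed in p27KO by presence and was in too few libraries for the test.

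Osmr (chr15:6813577-6874969, minus strand), the oncostatin M receptor, had 1 of the clearest falls and 1 of the clearest rises of the 8 windows, on either side of a promoter that was not called. The promoter region (chr15:6873807-6874837) stood at 47.3, 45.4 and 38.8 in WT PRO and 53.0, 27.1 and 44.4 in WT DIFF (0.15 ± 0.25, adjusted p = 0.725, limma), with overlapping groups. In the intron 24.9 kb downstream (chr15:6849526-6850553), whose printed sequence holds TGANTCA at 2 places, WT PRO stood at 88.6, 85.9 and 76.7 and WT DIFF at 28.2, 21.8 and 65.05. In p27KO the values were 76.5 and 83.7 in PRO and 53.3 and 46.4 in DIFF. All DIFF libraries were below all PRO libraries. The region fell by 1.06 ± 0.21 in WT (adjusted p = 0.00474, limma), with the call kept whichever library was left out, and its p27KO difference was -0.68 ± 0.26 (adjusted p = 0.118, and 0.0176 where a peak had to cover at least 50% of the region).

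The rise lay 7.5 kb upstream of Osmr (chr15:6882098-6882816), between genes. It stood at 44.1, 33.4 and 10.0 in WT PRO and 73.1, 85.2 and 82.6 in WT DIFF, and at 56.4 and 31.9 in p27KO PRO and 74.2 and 80.5 in p27KO DIFF. Every DIFF value exceeded every PRO value. The difference of 1.53 ± 0.24 in WT was the largest rise of the 90 regions (adjusted p = 0.00123, limma), and it was called with each library left out. In p27KO the region rose by 1.17 ± 0.29 (adjusted p = 0.0231), and the call was lost without p27KO PRO replicate 2 or p27KO DIFF replicate 1 or 2 (adjusted p from 0.0791 to 0.175), when a peak had to cover at least 50% of the region (0.186) and on percentiles (0.133).

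**Figure D3:**
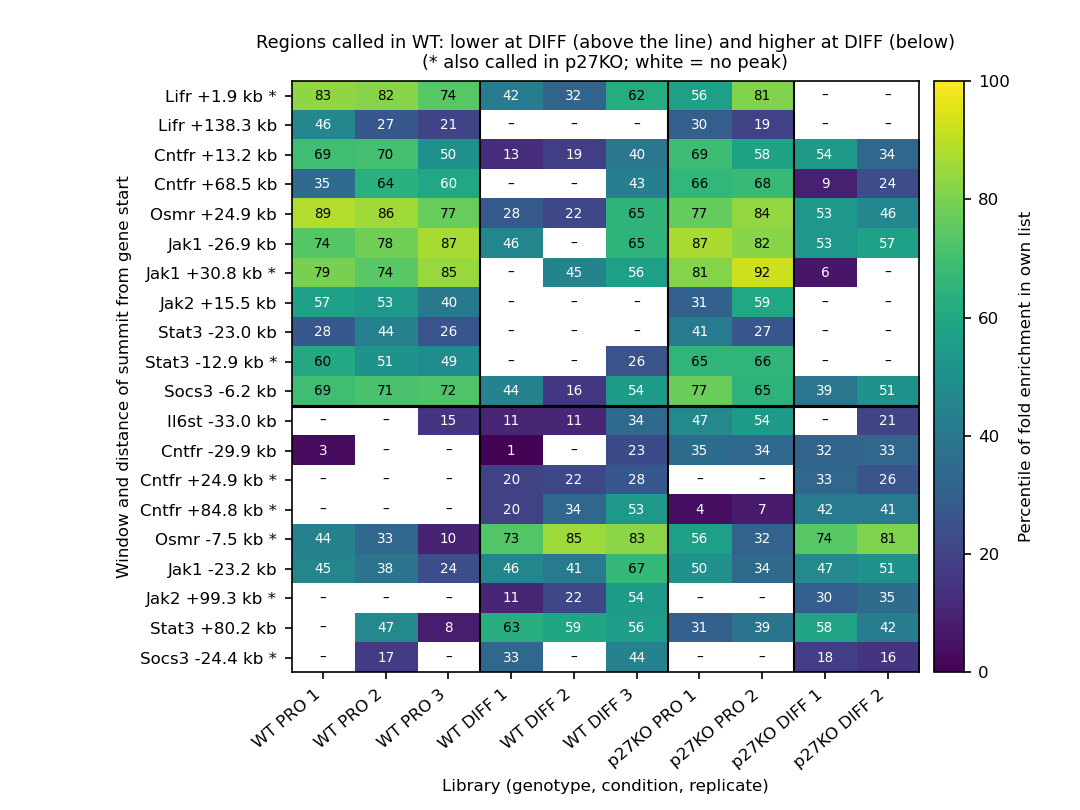
The 20 regions called in WT (rows, named by window and distance of the summit from the gene start) in each of the 10 libraries (columns). Colour and number give the percentile of fold enrichment in the library's own list, and white cells have no peak. The 11 regions above the line are lower at DIFF and the 9 below are higher, and WT DIFF replicate 3 has a peak in 8 of the 11 falling regions and is the highest of the WT DIFF libraries in each of these 8. Its list is the longest of the WT DIFF lists, and presence and percentile both depend on list length.

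Jak1 (chr4:101152367-101265282, minus strand), the kinase needed by gp130 receptors, had a promoter (chr4:101264429-101265531) between 92.3 and 96.8 in all libraries. Its difference was 0.23 ± 0.18 in WT and 0.01 ± 0.22 in p27KO (adjusted p = 0.419 and 0.986, limma). A region in its intron 30.8 kb downstream (chr4:101234185-101234917, printed above) stood at 79.4, 74.5 and 84.7 in WT PRO and at no peak, 45.1 and 56.5 in WT DIFF. In p27KO PRO it stood at 81.4 and 92.3, with 6.22 and no peak in DIFF. It fell by 1.13 ± 0.33 in WT and by 2.11 ± 0.41 in p27KO, the largest fall of the 90 in that genotype (adjusted p = 0.0366 and 0.00700, limma). The WT call was lost without any WT PRO replicate or WT DIFF replicate 1 or 3 (adjusted p from 0.0506 to 0.115) and on percentiles (0.0556), and the p27KO call without p27KO PRO replicate 2 or DIFF replicate 2 (adjusted p = 0.0660 and 0.0621).

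Upstream of Jak1, neighbouring regions had score differences of opposite sign in WT. At 26.9 kb upstream (chr4:101291993-101292600) the percentiles were 73.7, 78.2 and 86.9 in PRO and 46.1, no peak and 65.05 in DIFF, a fall by 1.04 ± 0.30 (adjusted p = 0.0323, limma). That call was lost without WT PRO replicate 2 or 3 or WT DIFF replicate 2 (adjusted p from 0.0688 to 0.106) and on percentiles (0.0943). At 23.2 kb upstream (chr4:101288341-101288878) they were 45.4, 38.5 and 23.9 in PRO and 46.1, 41.1 and 66.5 in DIFF, overlapping, with a score difference of 0.60 ± 0.18 (adjusted p = 0.0409, limma). Percentiles of WT DIFF replicates 1 and 2 were close to those of WT PRO replicate 1, and on that scale the difference was 15.3 ± 8.45 points (adjusted p = 0.286), while with lists of equal length it was called (0.70, adjusted p = 0.0173). The call was also lost without WT PRO replicate 2 or 3, any WT DIFF replicate or either p27KO DIFF replicate (adjusted p from 0.0541 to 0.138). The intronic region 70.0 kb downstream (chr4:101195082-101195578) closed by presence in p27KO, but its difference there was -0.74 ± 0.30 (adjusted p = 0.146).

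Jak2 (chr19:29251828-29313080, plus strand), the other receptor-bound kinase, kept its promoter (chr19:29251017-29252267) at 77.2 to 85.7 in all libraries, with differences of 0.19 ± 0.17 in WT and 0.09 ± 0.21 in p27KO (adjusted p = 0.480 and 0.840, limma). A region in its intron closed, 15.5 kb downstream (chr19:29267144-29267726, printed above). There WT PRO stood at 57.1, 53.3 and 40.4 and p27KO PRO at 31.0 and 59.5, and none of the 5 DIFF lists had a peak. The region fell by 1.22 ± 0.27 in WT, the largest WT fall of the 90 (adjusted p = 0.00935, limma), and the call was kept with each library left out. In p27KO the difference was -0.94 ± 0.33 (adjusted p = 0.0946), and it was called without p27KO PRO replicate 1 (-1.41, adjusted p = 0.0346) and on percentiles (adjusted p = 0.0187). A further Jak2 intronic region, 33.9 kb downstream (chr19:29285528-29285842), was present in 4 libraries, WT PRO replicates 1 and 2 and both p27KO PRO replicates, and thus closed in p27KO.

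The region of the Jak2 window that opened in both genotypes lay 99.3 kb downstream, over a coding exon of Plgrkt (chr19:29350930-29351334). No PRO list had a peak there. WT DIFF stood at 10.8, 21.8 and 54.4 and p27KO DIFF at 29.96 and 35.5. It rose by 1.32 ± 0.17 in WT and 1.44 ± 0.21 in p27KO (adjusted p = 0.000470 and 0.00170, limma), with no call lost when a library was left out. On percentiles the differences were 29.0 ± 9.88 and 32.7 ± 12.1 points (adjusted p = 0.0947 and 0.144), not called. Plgrkt, a plasminogen receptor gene, has its nearest start site 10.3 kb away.

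Stat3 (chr11:100885098-100939540, minus strand), the transcription factor at the end of the cascade, had an even promoter (chr11:100939021-100940135) at 95.3, 98.3 and 94.1 in WT PRO and 93.3, 96.7 and 96.5 in WT DIFF. The difference there was 0.24 ± 0.25 in p27KO (adjusted p = 0.600, limma) and close to 0 in WT (adjusted p = 0.999). The region 12.9 kb upstream (chr11:100951915-100952739, printed above) changed the most clearly. It stood at 60.3, 51.2 and 48.7 in WT PRO and at 65.3 and 65.7 in p27KO PRO, and its only DIFF peak was in WT DIFF replicate 3, at 25.5. It fell by 1.01 ± 0.17 in WT and by 1.54 ± 0.21 in p27KO (adjusted p = 0.00194 and 0.00119, limma), and both calls were kept with each library left out. Requiring a peak to cover at least 50% of the region ended both calls (adjusted p = 0.0800 and 0.0828).

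Further upstream, 23.0 kb from the Stat3 start in an intron of Cavin1 (chr11:100962329-100962699), a region with TGANTCA stood at 27.7, 43.8 and 25.9 in WT PRO and 40.7 and 27.2 in p27KO PRO, with no peak in any DIFF library. It fell by 0.76 ± 0.22 in WT (adjusted p = 0.0357, limma), and the call was lost without any WT PRO replicate or WT DIFF replicate 1 or 3 (adjusted p from 0.0520 to 0.125). Its p27KO difference was -0.65 ± 0.27 (adjusted p = 0.162, and 0.0194 on percentiles). On the other side, 80.2 kb downstream, the region at the start site of Stat5a (chr11:100859277-100859485), which encodes another STAT factor, had no peak, 47.1 and 7.59 in WT PRO and 63.0, 58.9 and 55.6 in WT DIFF. It rose by 1.24 ± 0.34 in WT (adjusted p = 0.0252, limma), with the call lost without WT PRO replicate 1 or 3 or WT DIFF replicate 1 or 2 (adjusted p from 0.0702 to 0.0858) and on percentiles (0.0527). An adjacent region 79.1 kb downstream (chr11:100860159-100860834) also lay at a start site of Stat5a. Its WT difference had the opposite sign, -0.56, and was not called (adjusted p = 0.0629, limma).

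Socs3 (chr11:117966079-117970047, minus strand), the feedback inhibitor, was open at its promoter (chr11:117968743-117970142) in all libraries, at 79.0, 77.7 and 70.4 in WT PRO and 67.4, 79.2 and 84.9 in WT DIFF. The difference was 0.18 ± 0.18 in WT and 0.32 ± 0.22 in p27KO (adjusted p = 0.531 and 0.402, limma). The RefSeq promoter of Socs3 (250 bases before to 50 after the start site, GRCm38.p6) was the only one of the 8 genes with TTCNNNGAA in the 250 bases before the start site, which held it in 7.02% of 32851 RefSeq promoters. It is shown on the minus strand with the STAT letters in capitals.

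Socs3 promoter, chr11:117969502-117969530: gaaaccagccTTCTTAGAAgggagggggg

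These letters lie 154 to 146 bases before the start site. A match is a description of the letters and not of binding, and TGANTCA, found in the same 250 bases of 6.75% of RefSeq promoters, occurred there in none of the 8 genes. Around the summits of the 8 promoter regions, which can lie elsewhere, it occurred in that of Osmr. A region 6.2 kb upstream of Socs3 (chr11:117975388-117976382), which also holds TTCNNNGAA, stood at 69.2, 71.4 and 72.4 in WT PRO and 44.3, 16.2 and 54.4 in WT DIFF, without overlap. It fell by 0.62 ± 0.18 in WT (adjusted p = 0.0349, limma), with the call lost without any WT PRO replicate or WT DIFF replicate 2 or 3 (adjusted p from 0.0646 to 0.111) and on percentiles (0.0556). In p27KO it stood at 77.4 and 64.7 in PRO and 39.4 and 51.3 in DIFF (-0.46 ± 0.22, adjusted p = 0.231). A region in an intron of Pgs1, 24.4 kb upstream (chr11:117994266-117994578), had score differences of 0.85 ± 0.27 in WT and 1.12 ± 0.33 in p27KO (adjusted p = 0.0452 and 0.0454, limma), neither of them called on percentiles (adjusted p = 0.274 and 0.518). Its WT groups overlapped, with 17.4 in WT PRO replicate 2 and 33.3 and 44.4 in WT DIFF replicates 1 and 3 as the only WT peaks. The WT call was lost without 8 of the libraries, all but WT PRO replicate 2 and WT DIFF replicate 2 (adjusted p from 0.0571 to 0.157), and the p27KO call without WT PRO replicate 1 or 3, WT DIFF replicate 3 or any p27KO library (adjusted p from 0.0501 to 0.191).

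No region of the 8 windows was called between the genotypes. The interaction, the p27KO change minus the WT change, gave 0 of 90 calls (limma, 0.0% of all regions), with 3 regions at an unadjusted p under 0.05 and 2760 over all regions. The 3 were the Il6st region 33.0 kb upstream (-1.57 ± 0.39), the Lifr intronic region 1.9 kb downstream (-0.88 ± 0.36) and the Cntfr promoter (0.84 ± 0.33), each with adjusted p = 1.00 by limma. Between p27KO and WT at PRO, 0 of 90 were called (0.034% of all regions, 0.00283% higher and 0.0311% lower) and 8 had an unadjusted p under 0.05, against 3906 of the 70627. The largest of these was again the Il6st region, higher in p27KO by 1.17 ± 0.28 (adjusted p = 0.460, limma), where p27KO PRO values of 46.9 and 54.3 lay above the single WT PRO value of 15.4. At DIFF, 0 of 90 were called (0.0156% of all regions) and 2 had an unadjusted p under 0.05, against 3466 of the 70627, led by the Lifr intronic region (-1.34 ± 0.26, adjusted p = 0.387, limma), which had a peak in all WT DIFF and no p27KO DIFF libraries. Of the 20 regions called in WT, 19 had a p27KO difference of the same sign, the exception being the Il6st region (on percentiles the Cntfr region 29.9 kb upstream was below 0 in p27KO as well), and 12 had an unadjusted p under 0.05 in p27KO. The same counts were not taken over all regions called in WT, so they are not read as a trait of these windows. With 2 p27KO libraries per condition the 12 regions called in WT alone are not shown to differ between genotypes, since the interaction was not called for any of them.

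**Figure D4:**
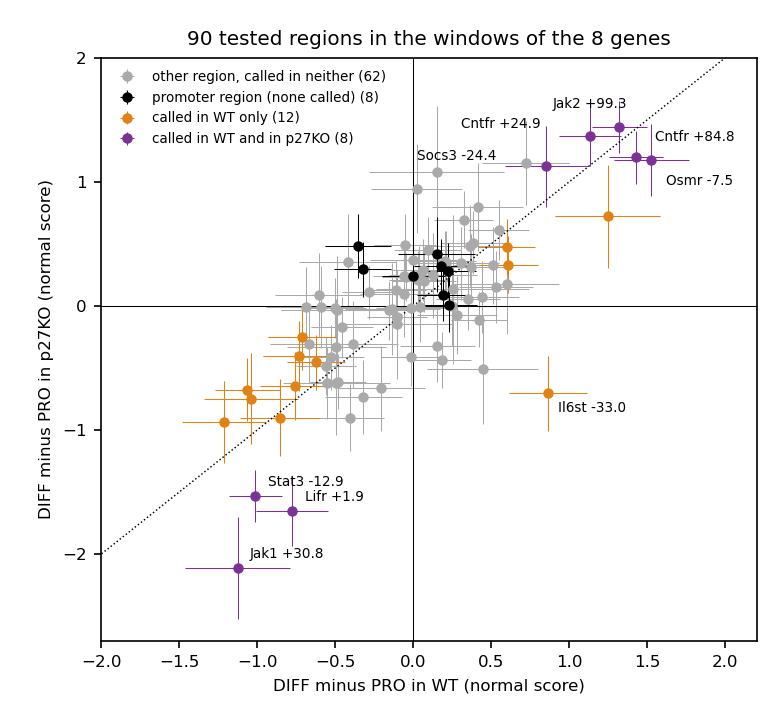
Difference between DIFF and PRO in WT (horizontal) and p27KO (vertical) for the 90 tested regions, in normal scores, with standard errors as bars and the line of equal change dotted. The 8 regions called in both genotypes lie in the lower left and upper right corners, 12 are called in WT only, and the Il6st region 33.0 kb upstream is the only called region in the lower right.

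Calls by distance from a start site ran close to the shares of all regions in WT and below them in p27KO away from start sites. Of 66 tested regions over 3 kb from any start site, 18 were called in WT (27.3%, against 23.3% of all such regions) and 7 in p27KO (10.6%, against 15.2%). Of 24 regions at a start site of any gene, 2 were called in WT (8.33%, against 7.03%) and 1 in p27KO (4.17%, against 3.73%). Those 2 were the Lifr region 1.9 kb downstream and the Stat5a start-site region 80.2 kb downstream of the Stat3 start.

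What the regions share in sequence was read from the summit and 150 bases on either side, on both strands, where either motif is its own reverse complement. TTCNNNGAA occurred in 10 of the 105 regions found in at least 2 libraries (9.52%, against 9.20% of all regions), and TGANTCA in 13 (12.4%, against 11.5%). Among the 11 regions that fell in WT, TGANTCA occurred in 6, at Lifr, Cntfr, Osmr, Jak1, Jak2 and Stat3, while it occurred in 28.3% of the 7103 falling regions of the whole genome that could be read. Among the 9 that rose it occurred in 1, at Il6st, against 7.01% of 6461 rising regions. TTCNNNGAA occurred in 1 of the 11 falling regions, at Socs3, and in none of the 9 rising ones, against 9.11% and 11.6% of all falling and rising regions, so these counts are at the background.

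The promoters of other pathway genes were then read in the same fit. Of 43 further ligands, receptors, kinases, STAT factors, inhibitors and STAT3 targets, 36 had a tested promoter region and 32 had one with a peak in all 10 libraries. The ligand gene Osm, and Stat4 and Icam1, had no promoter region with a peak in 2 or more libraries. In WT, 3 of the 36 promoters were higher at DIFF and 0 lower, and in p27KO 0 of 36 were called. Of all 13389 promoter regions tested, 373 were higher and 275 lower in WT. The called shares, in either direction, were 4.84% in WT and 2.25% in p27KO. The 3 were Stat5a, described above, the inhibitor Socs5 and the astrocyte gene Gfap, a classical STAT3 target. For Stat5a this holds for the region nearest to a start site, while the adjacent start-site region had an uncalled difference of -0.56 in WT. Socs5 stood at 76.6, 76.0 and 77.4 in WT PRO and 88.1, 89.5 and 93.3 in WT DIFF, and rose by 0.68 ± 0.18 (adjusted p = 0.0209, limma). Gfap stood at 70.7, 71.4 and 78.2 in WT PRO and 84.8, 80.5 and 93.3 in WT DIFF, and rose by 0.62 ± 0.18 (adjusted p = 0.0362, limma). Neither overlapped between WT conditions. In p27KO the differences were 0.62 ± 0.22 for Socs5 and 0.24 ± 0.22 for Gfap (adjusted p = 0.0961 and 0.552, limma). The WT count fell to 0 without WT PRO replicate 1 and to 1 without WT PRO replicate 2 or WT DIFF replicate 2. On percentiles it was 1 as well.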

How the data were processed

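ATAC-seq libraries of mouse SEZ NSC cultures were deposited as 1 peak list per library. Per the labels the authors used FastQC, MultiQC, cutadapt, Trimmomatic, Bowtie2 and MACS2 on GRCm38 (mm10); their versions are not given in the sources used here, and neither is a shift of reads for the transposase. The lists deposited by the authors hold peak positions, summits, fold enrichment (a ratio of pileup to the local background) and -log10 p-values and q-values, at a false discovery rate of 5%. The deposited score column, which repeats the q-value, was not used. The authors called peaks per library, without pooling. The lists carry no read counts, so the study's DiffBind test on alignments could not be run, and depth, which sets how many weak peaks a list holds, is unknown.

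Peaks sharing at least 1 bp were merged. Where 5 or more libraries had a peak, the highest fold enrichment was ranked within its library, regions without a peak being tied at the bottom, at a score that rises as the list gets shorter, and normal scores were fitted with limma 3.58.1 (R 4.3.3), with 1 mean per group over all 10 libraries, Benjamini-Hochberg adjustment and a threshold of 0.05. The fit was tried on simulated scores with independent noise. These were not ranked again and held no tied absent peaks, so that trial could not show the effect of list length. Percentiles rank a peak among all peaks of its own list, so they depend on its length as well. The promoter region of a gene is the one nearest to a GENCODE M21 start site, at most 3 kb away, among regions with a peak in 2 or more libraries. Sequences came from RefSeq GRCm38.p6.

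Groups followed titles and genotypes. The description field of the p27KO libraries says WT, against both. Named are the 8 genes, their promoter regions, every other region called or closed or opened by presence, and called promoters of other pathway genes. A further gene of the pathway list is counted but not reported here. The members and lists were chosen with earlier results of these data known. Alternatives were the ranked column, library minimum, list length, q-value, overlap, window, samples fitted, replicate block, percentiles in place of scores (added after seeing the data) and leaving out each library.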

Additional observations from a re-analysis of the deposited data

Results flagged for a closer look

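The promoter region of Il6st, which encodes gp130, moved in opposite directions in the 2 genotypes. All 3 WT DIFF libraries (90.5 to 95.9, percentile of fold enrichment) lay below all 3 WT PRO libraries (96.2 to 98.0), and both p27KO DIFF libraries (95.31 and 97.95) lay above both p27KO PRO libraries (95.21 and 95.29), the nearest pair by a margin seen only in the second decimal. The p27KO change minus the WT change was 0.62 normal scores (limma, unadjusted p = 0.0536, adjusted p = 1.00), so the difference was not called. Of all regions tested, 0.565% had such opposite moves without overlap, and of the 90 regions in the windows this was the only one. With groups of 2 and 3 libraries no search for outlying samples was made.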

How the results depend on the processing

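For single regions, direction and call were kept by 420 values under other settings, while 55 lost the call, 12 gained it and 9 turned sign, and with a library left out these numbers were 501, 89, 2 and 8. Of 90 regions, 20 were called in WT. This became 13 of 105 with a peak required in at least 2 libraries and 6 of 53 in all 10. It was 8 of 62 where a peak had to cover at least 50% of the region, and 13 when only the groups compared were fitted. On percentiles with no peak at 0, a scale added after seeing the data, it was 11. Leaving out 1 library gave 9 to 16 in WT and 5 to 10 in p27KO, where 8 were called, against 2 of the 53 regions in all 10 libraries. Shares of all regions were taken only for the main fit, shortened lists and percentiles. The other counts are thus not read as a trait of these windows. No member promoter was called under any alternative. Other pathway promoters called numbered 0 to 3 in WT with a library left out and 1 on percentiles, and 2 in p27KO at 50% cover.

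By presence, WT closed regions numbered 3 with the 57000 strongest peaks of each list and 3 with a 10 kb window (5 to 9 with a library left out), and WT opened regions 1 at 50% cover and 1 with the 10 kb window (3 to 4). In p27KO the 10 kb window gave 5 closed and 2 opened, and leaving out a library 12 to 13 and 4 to 7. With a library left out fewer libraries have to agree, and shares of all regions were not taken for these counts. The p27KO peak difference was 1 at 57000 peaks, -6 with the 10 kb window and -12 to -7 with a library left out.

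Signs turned for values near 0. The Jak1 promoter difference in p27KO became -0.0742 when ranked by -log10 p and -0.00151 among regions in all 10 libraries, and leaving out a library gave -0.17 to 0.19, negative without p27KO PRO replicate 2 or p27KO DIFF replicate 2. The Stat3 promoter in WT became 0.11 when ranked by -log10 p, 0.000162 at 57000 peaks and 0.00590 at 50% cover, and ran from -0.11 to 0.17 with a library left out, positive without WT PRO replicate 2, WT DIFF replicate 1 or WT DIFF replicate 3. The Osmr promoter ran from -0.0329 (without WT DIFF replicate 1) to 0.30 in WT and from -0.0165 (without p27KO PRO replicate 1) to 0.85 in p27KO. The Cntfr region 13.2 kb downstream ran from -0.54 to 0.0348 (without p27KO DIFF replicate 2) in p27KO. On percentiles the differences became -2.33 points for the Osmr promoter in WT and, in p27KO, -1.11 for the Jak1 promoter, -1.75 for the Jak2 promoter and -2.01 for the Cntfr region 29.9 kb upstream. The cause was not tested.

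With the replicate number as a block, 15 regions were called in WT, 8 in p27KO and 0 in the interaction. Deviations of same-numbered WT libraries correlated at 0.033 to 0.065, each best with its own number, and those of differently numbered WT libraries were below 0. In p27KO same-numbered libraries correlated at -0.141 and crossed ones at 0.141, values that mirror each other because each condition has 2 libraries. Whether the replicates are paired cannot be decided from these values. Crossed numbers in p27KO, added after seeing the data, gave 9 calls.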

Other observations

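Of the 8 promoters, Cntfr had the largest absolute difference between DIFF and PRO in WT (-0.36). Over the 10 libraries, the promoter regions whose normal scores ran most like it, of 13388 compared, were those of Psmd2 (Pearson r = 0.909), Pde8a (0.907) and Anxa6 (0.891). These are the highest of many coefficients over 10 points that share list length and group, and they are given as a description.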
